A study of Homo sapiens with 18 samples.

Results

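Chromosome 19 held 3868 of the 132604 regions of open chromatin that were counted in T47D cells, or 2.92% of them. T47D is an established line from a human breast carcinoma and is known to express progesterone receptor. The regions are all those whose name in the deposited count table places them on chromosome 19, and they were set against the 125716 regions of the other 21 autosomes. Chromosome 19 was picked because few of its regions responded in these same libraries. Its calls between treated and vehicle cells, and their ratios to other autosomes, are therefore descriptions with no test of the chromosome.

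The assay was Omni-ATAC-seq, in which the Tn5 transposase cuts open DNA and leaves sequencing adapters there, so that reads pile up where chromatin is open. All 6 groups were T47D cells synchronized by serum starvation in phenol red-free medium. They then received DMSO vehicle, 0.1 nM R5020 or 10 nM R5020 (promegestone, a synthetic progestin) for 6 h or 18 h, with 3 libraries per group. Nothing in the labels says that the 3 libraries were separate cultures. The p-values then reflect only how far these libraries vary, which may be technical.

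The progesterone receptor is a transcription factor that binds DNA once it holds a progestin, and its binding sites in breast cancer cells lie mostly in enhancers away from gene starts. Promoters of widely used genes tend to be wide, strongly open and GC-rich, and they are usually open whether or not a hormone is present. Human chromosome 19 is known as the most gene-dense chromosome and carries large clusters of zinc finger genes, which encode DNA-binding repressors.

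The density of genes on chromosome 19 was the highest of the 22 autosomes in RefSeq (GRCh38.p14), with 1451 protein-coding genes at 24.8 per Mb against 2.96 to 14.1 per Mb elsewhere. Of the 505 autosomal genes named ZNF with a number, 250 (49.5%) were on it. Its 1917 annotated promoters, each taken from 250 bases before to 50 bases after a gene start, had a median GC content of 62.7%, against 58.3% over 31808 promoters of 20 other autosomes. Chromosomes 16 and 22 were higher, at 63.3% and 63%. Only names and counts were taken from that build, since the regions carry hg19 coordinates. With 2.67 open regions per protein-coding gene, chromosome 19 had the fewest of any autosome, the others having 4.55 to 12.

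Regions on chromosome 19 were wider than elsewhere in the region set counted in all libraries, and stronger in vehicle cells. Their median width was 500 bp against 383 bp, and 607 of them (15.7%) reached 1000 bp against 9.03% on the other autosomes. In the 6 vehicle libraries their median level was 4.80 counts per 1000000 (CPM, relative to TMM-scaled library size) against 2.09 CPM. A level of 16 CPM or more was reached by 1065 regions (27.6%) against 11.2%. Both medians ranked first of the 22 autosomes. Regions lay 65.7 per Mb, second to chromosome 22 with 66.8, and the median distance to the nearest neighbouring region was 4784 bp against 5460 bp. Levels were not corrected for the copy number of each chromosome in these cells.

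Library totals ran from 8756311 to 39984217 counts, of which 406329 to 2305715 fell on chromosome 19. In vehicle cells at 6 h chromosome 19 took 5.77%, 5.68% and 5.51% of the counts. The shares were 6.03%, 5.34% and 5.87% with 0.1 nM and 5.24%, 5.11% and 5.18% with 10 nM, so every 10 nM library lay below every other library of that time. After 18 h they were 5.81%, 5.47% and 5.16% with vehicle, 6.00%, 5.30% and 4.96% with 0.1 nM, and 5.77%, 4.97% and 4.64% with 10 nM, and the 3 groups overlapped. Between the vehicle groups, which the choice of the chromosome did not rest on, the share was 5.48% ± 0.328 at 18 h and 5.65% ± 0.134 at 6 h (SD, n = 3), a difference of -0.175 percentage points. This is within the spread of the libraries (exact two-sided permutation p = 0.6, where 3 against 3 libraries cannot go below 0.1).

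**Figure D1:**
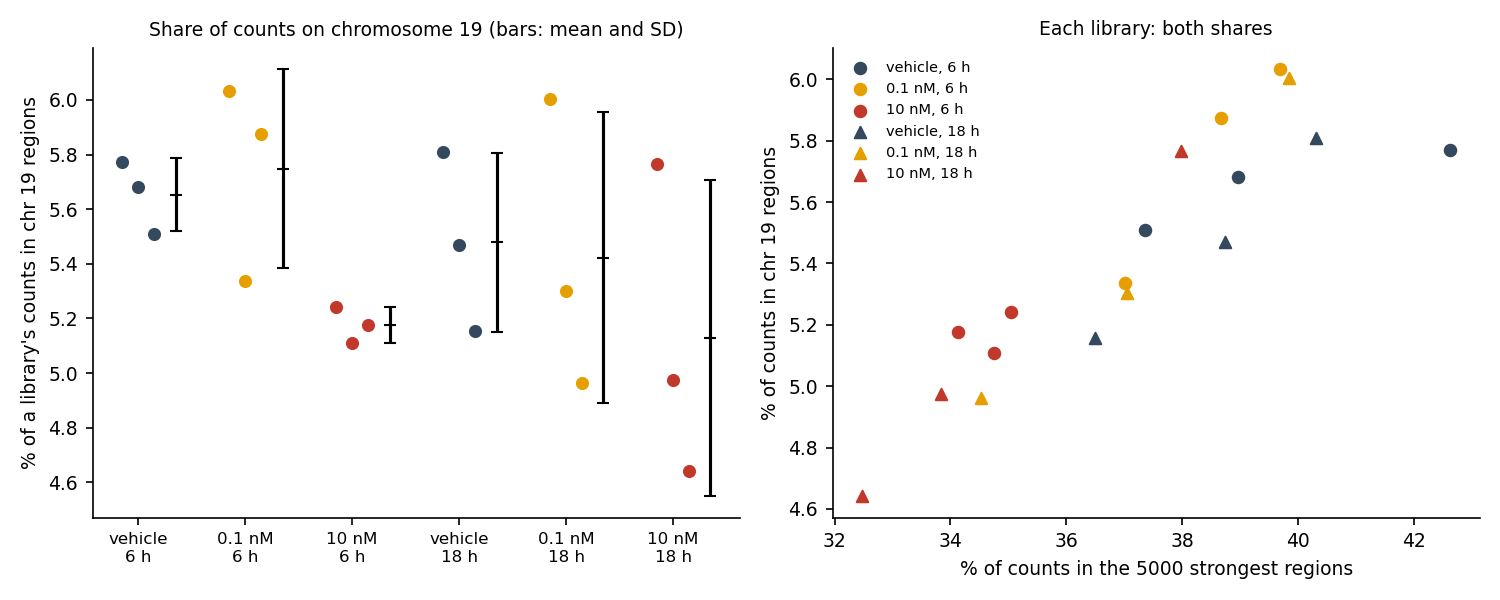
Left, percent of each library's counts in chromosome 19 regions, by group, with the mean and SD of 3 libraries. Right, the same percent against the percent held by the 5000 strongest regions of that library, which can include chromosome 19 regions. The 10 nM libraries at 6 h, 5.11% to 5.24%, lie together below the other 6 h libraries in both shares. The 18 h groups spread along the same line, down to 4.64% in a 10 nM library.

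The share on chromosome 19 moved with how strongly each library favoured its strongest regions. Those regions can lie on chromosome 19 too, so both shares can hold the same counts and are not independent. The 5000 regions with the most counts took 39.7% ± 2.71 of the counts in vehicle cells and 34.6% ± 0.469 in 10 nM cells at 6 h, and 38.5% ± 1.92 and 34.8% ± 2.87 at 18 h (SD, n = 3). In 5 of the 6 groups the libraries had the same order in both shares. The part of that library difference in the responses below was not tested beyond a fit with that share as a covariate, whose values are given beside them. At 6 h that share was 37.4% to 42.6% in the vehicle libraries and 34.1% to 35.1% in the 10 nM libraries, without overlap. In that fit a difference between libraries and a response to the dose therefore cannot be told apart.

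After 10 nM R5020 for 6 h, 419 chromosome 19 regions were more open and 232 were less open than in vehicle cells, out of 3865 tested (edgeR quasi-likelihood test, Benjamini-Hochberg adjusted p under 0.05 over all chromosomes). Over all chromosomes 25.1% of tested regions were called, 16.7% higher and 8.42% lower. On chromosome 19 the shares were 16.8% in all, 10.8% higher and 6.00% lower. The called gains were weak regions, with a median vehicle level of 1.5 CPM and a median width of 407 bp. The called losses were stronger and wider, with medians of 9.31 CPM and 615 bp. In the fit with that covariate, the gains numbered 753 and the losses 290.

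Called gains on chromosome 19 were also somewhat smaller than those elsewhere, in a comparison not matched on level. Their median log2 fold change was 1.78 against 1.93 on the other autosomes, and 160 of 419 (38.2%) were 4-fold or more against 46.2%. The median loss was -0.88 against -1.14. Losses of 4-fold or more numbered 15, or 6.47% of the losses against 11.7%. The spread between replicates was close to that of matched regions. The mean SD of log2 CPM between 10 nM libraries at 6 h was 0.240 against 0.229 expected at the same level and width, and the mean standard error of this contrast was 0.351 against 0.342.

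Level and width were then matched, since both differ between chromosomes and both bear on whether a region is called. The percent called on each autosome was divided by the percent expected from the remaining autosomes at the same mean level and width. Matched on the level over all 18 libraries, chromosome 19 had 0.742 times the expected calls in either direction, the lowest of the 22 autosomes, with 0.808 for gains and 0.647 for losses. Chromosome 8 came next in either direction with 0.845, and chromosomes 4 and 2 were highest with 1.16. For gains chromosome 8 was lower than chromosome 19, at 0.80, and for losses chromosome 22 was lower, at 0.56.

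The deficit of gains depended on the level used for matching. A region that opens raises its own mean over all libraries, whereas the vehicle libraries hold the level without the hormone. The vehicle libraries are also the reference of the same contrasts, so neither level is independent of the calls. Matched on the vehicle level and width, gains on chromosome 19 were 1.0 times the expected number, 12th from the lowest of the 22 autosomes. Losses were 0.539 times the expected number, with chromosome 22 lower at 0.52, and calls in either direction were 0.768 times, still the lowest. Chromosome 19 was thus the lowest for all calls together at 6 h under both matchings. This describes the calls by which it was picked and is no separate check. For losses at 6 h chromosome 22 was lower under both, and chromosomes 16, 20 and 17 were low as well. Matched on all libraries their loss ratios were 0.647, 0.780 and 0.801, and on the vehicle libraries 0.596, 0.715 and 0.712. Chromosome 19 was not the lowest for gains at 6 h, where chromosome 8 was lower, and at the vehicle level no deficit of gains remained.

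**Figure D2:**
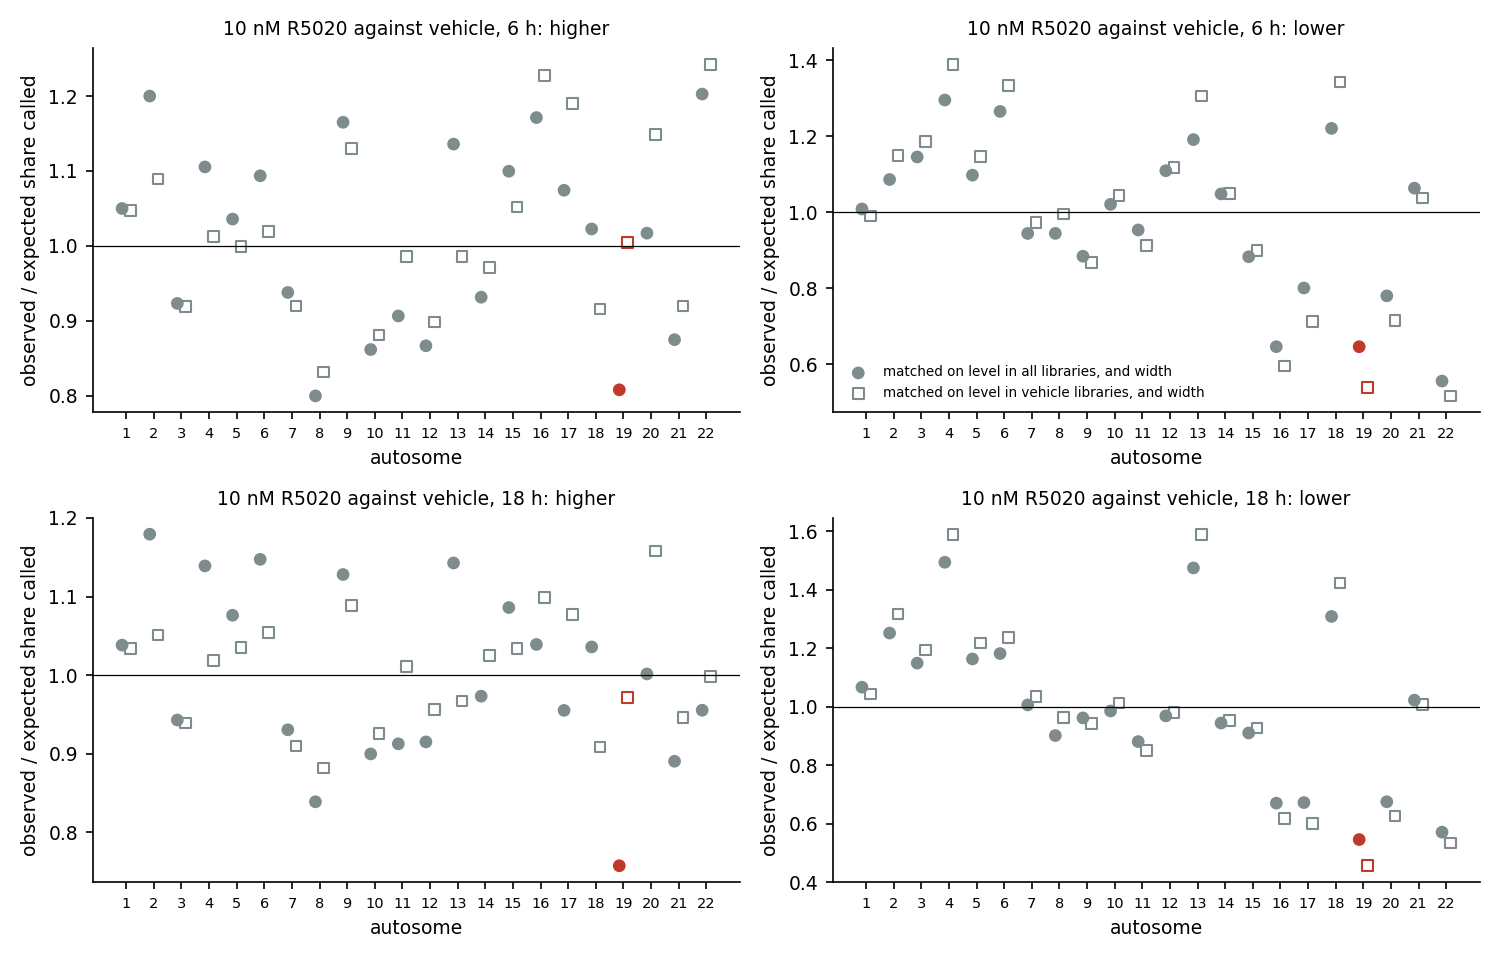
Observed over expected percent of regions called higher (left) or lower (right) with 10 nM R5020 at 6 h (top) and 18 h (bottom) for each autosome, matched on width and on the level over all libraries (filled circles) or the vehicle libraries (open squares); chromosome 19 is red and 1 is the expected value. For gains at 6 h the chromosome 19 ratio moved from 0.808 to 1.0 between the matchings, and for losses from 0.647 to 0.539.

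By vehicle level the pattern was as follows. Among regions under 1 CPM, 144 of 504 on chromosome 19 (28.6%) rose against 29.8% elsewhere, and from 1 to 2 CPM 108 of 576 (18.8%) rose against 18.4%. From 8 to 16 CPM 19 of 433 (4.39%) rose against 8.45%, and at 16 CPM or more 7 of 1065 (0.657%) against 2.26%. Gains were thus as frequent as elsewhere among weak regions and rarer among strong ones, and chromosome 19 had fewer weak regions, with 13.0% under 1 CPM against 26.5%. Losses were rarer in each class above 1 CPM: 4.01% against 10.3% from 2 to 4 CPM, 9.77% against 17.8% from 4 to 8 CPM, 11.8% against 22.6% from 8 to 16 CPM, and 6.95% against 12.1% at 16 CPM or more.

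**Figure D3:**
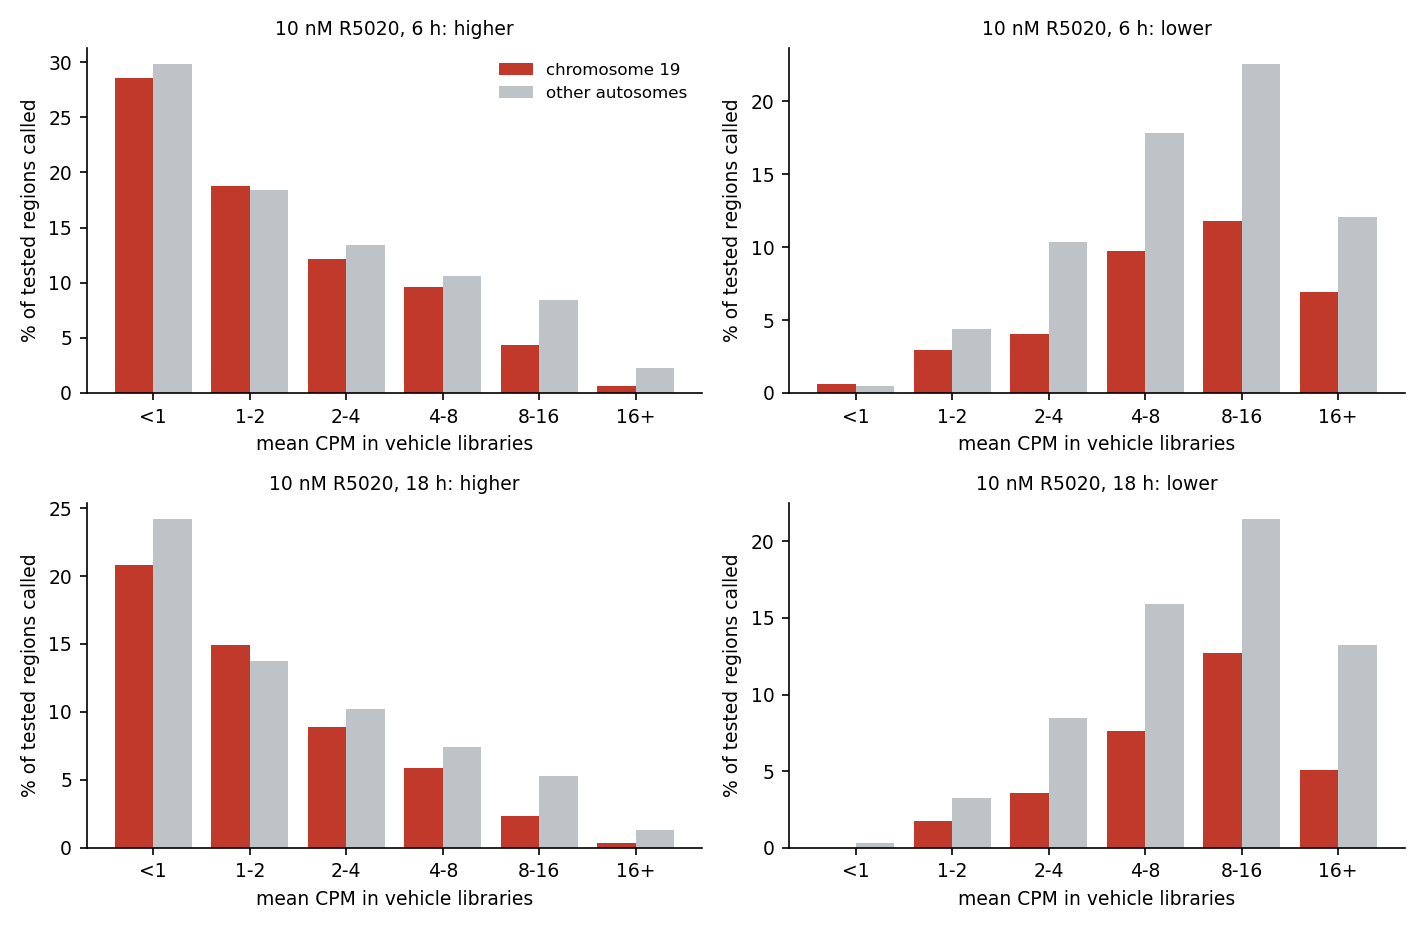
Percent of tested regions called higher (left) or lower (right) with 10 nM R5020 at 6 h (top) and 18 h (bottom), by mean CPM in the 6 vehicle libraries, for chromosome 19 (red) and the other autosomes (grey). The gains meet at low levels (28.6% against 29.8% under 1 CPM at 6 h), while the losses of chromosome 19 are lower in each class from 1 CPM up.

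By width, regions under 300 bp were called lower about as often as elsewhere, at 3.29% against 2.98%. Regions from 500 to 1000 bp were called lower in 112 of 1328 cases (8.43%) against 15.5%, and those of 1000 bp or more in 39 of 607 (6.43%) against 12.3%. Gains were rarer in all 4 width classes, from 13.0% against 15% under 300 bp to 2.47% against 5.69% at 1000 bp or more. Regions whose nearest neighbour lay 20 kb or more away were few on chromosome 19, 237 of them, and 13 (5.49%) rose against 14.3% elsewhere.

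Of the 1393 chromosome 19 regions that were open at 10 CPM or more in vehicle cells at 6 h, 22 (1.58%) rose with 10 nM and 117 (8.40%) fell, against 3.8% and 16.1% of such regions elsewhere. The vehicle libraries that set this group are also the reference of the contrast, so the balance of rises and falls depends on that choice. The median log2 change over all tested chromosome 19 regions was -0.20, against -0.05 on the other autosomes. In the strongest and the weakest level class, the medians of chromosome 19 and of the other autosomes lay close together. Regions of 16 CPM or more changed by -0.35 ± 0.0026 on chromosome 19 and by -0.33 ± 0.032 elsewhere, as the mean over 3 libraries of their median log2 ratio to vehicle (SD, n = 3). Regions under 1 CPM changed by 1.01 ± 0.094 and 0.91 ± 0.077. These classes were set by the vehicle libraries, which are also the reference of the ratios, so class and change are not independent. Regions weak in vehicle cells could also pass the filter through treated libraries. With the covariate fit the chromosome 19 median turned to 0.12, with 0.03 over all regions. With library totals in place of TMM factors the median over all regions rose by 0.11 at 6 h and 0.16 at 18 h, and that of chromosome 19 was -0.08 and -0.06.

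The number of losses at 6 h rested on single libraries. It was 112 and 120 without vehicle replicates 1 and 2, and 97, 116 and 121 without 10 nM replicates 1, 2 and 3. The number of gains was 305 to 438 over the same exclusions.

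Among regions whose mean log2 CPM reached 1, single ones changed by up to about 12-fold with 10 nM at 6 h. At chr19:47601171-47601541 (hg19), a region of 370 bp, the level was 1.37, 0.81 and 2.02 CPM with vehicle and 13.1, 15.4 and 18.3 CPM with 10 nM. That is a log2 fold change of 3.55 (SE 0.37, 11.7-fold, edgeR adjusted p = 7.16e-07). With 0.1 nM it was 1.30, 1.43 and 1.28 CPM, within the vehicle range. At 18 h it was 1.12, 1.96 and 1.53 CPM with vehicle, 1.11, 1.80 and 2.33 CPM with 0.1 nM, and 19.2, 7.85 and 10.9 CPM with 10 nM. The 10 nM libraries of both times thus lay above all others, and the low dose overlapped the vehicle libraries at both times.

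The 8 largest gains among such regions whose 10 nM and vehicle libraries did not overlap were 9.15-fold to 11.7-fold. They were 287 to 723 bp wide, had a mean vehicle level of 1.13 to 3.12 CPM, and each was called higher at 18 h as well. At chr19:46875052-46875339 the mean rose from 0.968 ± 0.293 to 11.2 ± 0.701 CPM at 6 h (SD, n = 3). The region at chr19:47454289-47454997 went from 1.12 ± 0.34 to 11.8 ± 0.752 CPM at 6 h, but only from 1.83 ± 0.563 to 3.96 ± 1.04 CPM at 18 h. The difference between the times in that response did not pass the test (log2 difference -2.19, SE 0.50, edgeR adjusted p = 0.215).

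The 8 largest losses chosen in the same way were 4.26-fold to 9.68-fold, and each was called lower at 18 h as well. The largest, at chr19:20790853-20791305, had 7.04, 6.74 and 8.58 CPM with vehicle, 3.34, 3.70 and 3.96 CPM with 0.1 nM and 0.703, 0.445 and 1.08 CPM with 10 nM at 6 h. The log2 fold change with 10 nM was -3.27 (SE 0.29, edgeR adjusted p = 1.28e-07). The 0.1 nM libraries lay between the other groups without overlap, and their fall of 1.02 on the log2 scale missed the threshold (edgeR adjusted p = 0.0548). After 18 h they were 6.17, 5.92 and 6.66 CPM with vehicle, 2.11, 3.32 and 2.14 CPM with 0.1 nM and 0.578, 0.818 and 0.559 CPM with 10 nM, the same order with no overlap, and there both doses passed the test. The call with 0.1 nM was lost without 0.1 nM replicate 1 of 18 h (edgeR adjusted p = 0.0709).

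A wider and stronger region that fell lay at chr19:33192236-33193482, with 1246 bp. It had 39.9, 31.4 and 21.5 CPM with vehicle and 5.20, 7.57 and 4.48 CPM with 10 nM at 6 h (log2 fold change -2.43, SE 0.27, edgeR adjusted p = 1.61e-06). The 0.1 nM libraries, at 16.7, 14.1 and 18.3 CPM, lay below the vehicle libraries, and that difference did not pass the test (edgeR adjusted p = 0.103).

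**Figure D4:**
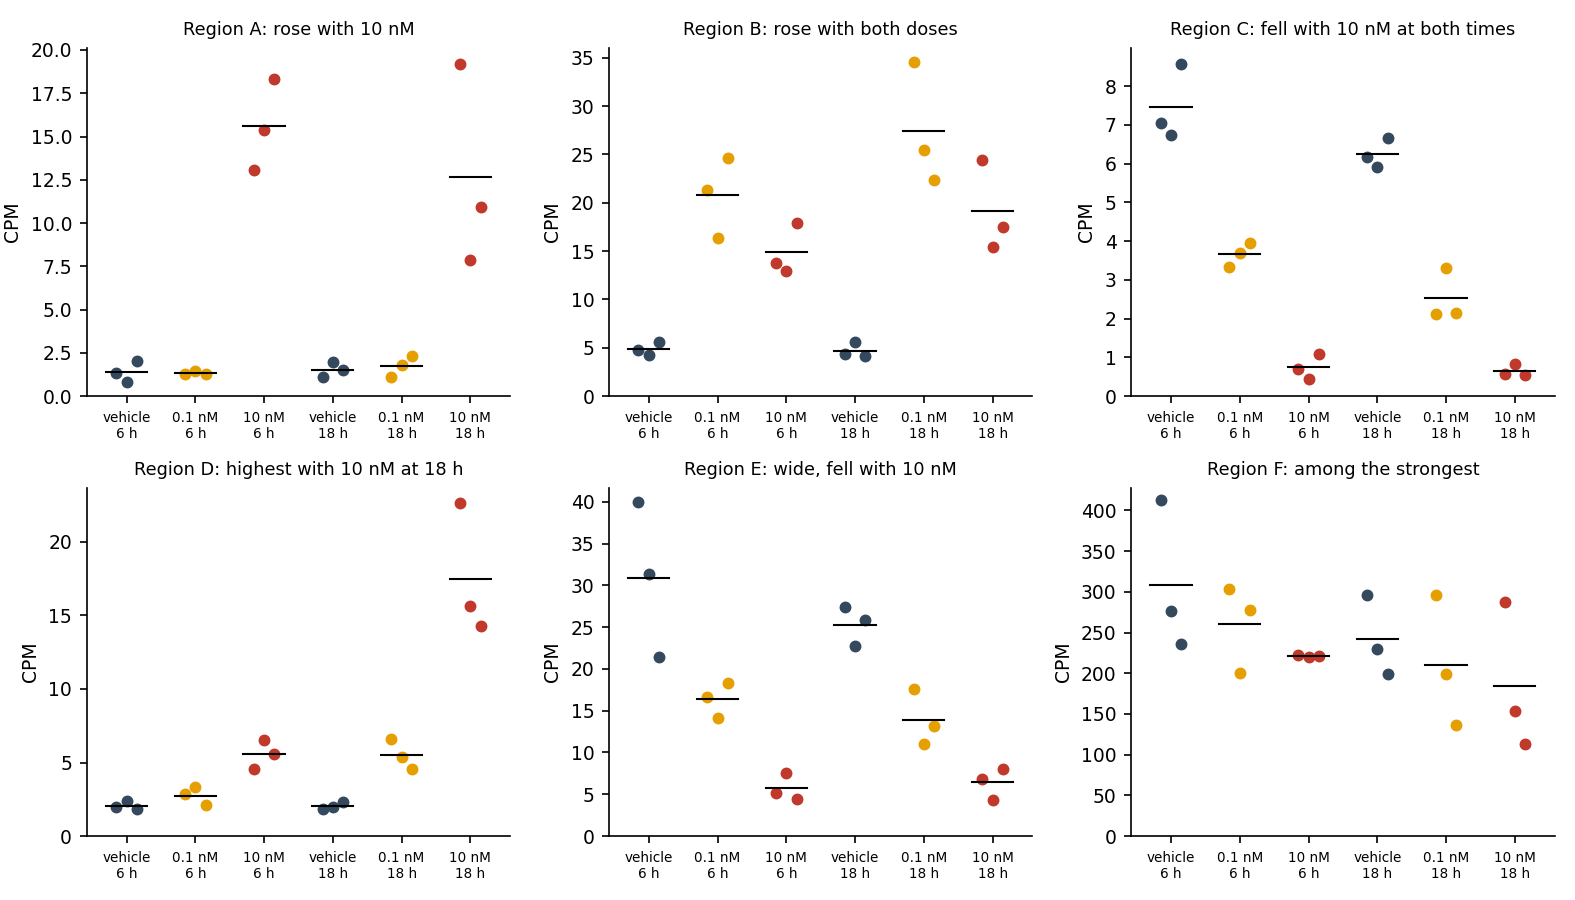
CPM in each of the 18 libraries, with the mean of 3 as a line, at chr19:47601171-47601541 (A), chr19:3429364-3430409 (B), chr19:20790853-20791305 (C), chr19:24242381-24243062 (D), chr19:33192236-33193482 (E) and chr19:54693119-54695162 (F). Region A rose with 10 nM from about 1.4 to 15.6 CPM at 6 h, B was highest with 0.1 nM, C fell with 10 nM at both times, D was highest with 10 nM at 18 h, E fell with 10 nM, and F, among the strongest, had no called change.

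Regions of at least 10 CPM in vehicle cells were rarely called higher, though the vehicle libraries that set this level are also the reference. The largest such gain, from at least 10 CPM in vehicle, was at chr19:1172807-1173376, with 10.7, 9.06 and 12 CPM with vehicle and 31.4, 33.7 and 34.0 CPM with 10 nM at 6 h (log2 fold change 1.65, SE 0.21, edgeR adjusted p = 7.42e-06). At chr19:30162040-30162994 the mean went from 24.7 ± 10.4 to 65.6 ± 4.88 CPM, and at chr19:19477339-19478042 from 12.1 ± 0.707 to 30.8 ± 0.858 CPM (SD, n = 3).

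None of the 5 strongest regions on chromosome 19 was called with 10 nM at 6 h. The strongest, chr19:27731923-27733471, is the first region past the largest stretch without regions, 3130084 bp from 24601839 to 27731923. It ranged from 312 to 592 CPM with vehicle and from 334 to 426 CPM with 10 nM at 6 h, and from 225 to 1146 CPM with 10 nM at 18 h, so the groups overlapped. The read filters are not given, so how uniquely the reads of this region mapped could not be checked. The region at chr19:54693119-54695162 had 413, 276 and 235 CPM with vehicle and 223, 220 and 221 CPM with 10 nM at 6 h (log2 fold change -0.48, SE 0.33, edgeR adjusted p = 0.325). Of the 3 widest regions, 2510 to 2731 bp, 1 was called: chr19:58324683-58327278 fell from 73.3 ± 24.8 to 39.7 ± 4.18 CPM (SD, n = 3, edgeR adjusted p = 0.0034).

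After 18 h of 10 nM, 301 chromosome 19 regions were higher (7.79%) and 190 were lower (4.92%) than vehicle. Over all chromosomes 20.4% were called, 12.8% higher and 7.56% lower. Gains had a median log2 fold change of 1.60 against 1.78 on the other autosomes, and losses -0.92 against -1.22. These sizes were not matched on level either. Matched on the level over all libraries, calls in either direction were 0.659 times, gains 0.758 times and losses 0.546 times the expected number, each the lowest of the 22 autosomes. Matched on the vehicle level, gains were 0.972 times, 9th from the lowest, and losses 0.456 times, the lowest. Gains were 20.8% against 24.2% of the regions under 1 CPM and 14.9% against 13.8% from 1 to 2 CPM, while losses from 8 to 16 CPM were 12.7% against 21.5%.

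The counts after 18 h rested on single libraries too. Losses numbered 527 without 10 nM replicate 1, and 107, 119 and 124 without vehicle replicate 1, vehicle replicate 2 and 10 nM replicate 3. Gains numbered 170 without vehicle replicate 1 and at most 289 in the other exclusions. Without 10 nM replicate 1 they numbered 255, so losses then outnumbered gains. The covariate fit called 432 gains and 285 losses, and the median log2 change of all chromosome 19 regions was -0.01 in it, against -0.21 without the covariate. The median log2 ratio of chromosome 19 regions to vehicle was -0.00, -0.13 and -0.32 in the 3 libraries given 10 nM, and -0.05, 0.09 and 0.13 on the other autosomes. In these 3 libraries the top 5000 regions took 38.0%, 33.8% and 32.5% of all reads counted.

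The 2 times of 10 nM share no libraries, though 1 fit over all 18 libraries estimated their spread. Of the 419 gains at 6 h, 229 (54.7%) were called again at 18 h, which was 76.1% of the 301 gains there. On the other autosomes the shares were 60.8% and 79.1%. Of the 232 losses, 107 (46.1%) were called again, 56.3% of the 190 losses at 18 h, against 58.5% and 65.2% elsewhere. No chromosome 19 region was called in opposite directions at the 2 times. This was rare elsewhere too, with 15 of 21172 gains and 1 of 10645 losses at 6 h on the other autosomes. The 419 regions that gained at 6 h stood at a median log2 ratio to vehicle of 1.18, 1.08 and 1.10 in the 3 libraries given 10 nM for 18 h, and at -0.00, 0.33 and 0.60 in those given 0.1 nM. The 232 losses stood at -0.51, -0.66 and -0.78 with 10 nM and at 0.07, -0.15 and -0.34 with 0.1 nM.

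With 0.1 nM R5020 for 6 h, 19 chromosome 19 regions rose and 1 fell. Over all chromosomes 1.19% were called, 0.949% higher and 0.241% lower. The matched ratio was 0.350 in either direction, the lowest of the 22 autosomes, and the gains were 0.384 times the expected number, or 0.619 times at a matched vehicle level. These ratios rest on few calls. DESeq2 called 35 higher and 5 lower, the covariate fit 71 and 10, and 9 gains were left without vehicle replicate 1 or 2 and 10 without 0.1 nM replicate 1. The single loss, at chr19:30396198-30396663, had means of 4.73 CPM with vehicle and 1.32 CPM with 0.1 nM. It was not called without vehicle replicate 1 or 2 or without 0.1 nM replicate 1 or 2.

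At 18 h 0.1 nM gave 41 gains and 6 losses on chromosome 19, where 2.44% of regions over all chromosomes were called, 1.74% higher and 0.698% lower. The matched ratio was 0.416, again the lowest, and 0.228 and 0.244 without replicate 1 of 0.1 nM or of vehicle, with gains at 0.468 times the expected number and at 0.692 times on the vehicle level. The gains numbered 9, 19 and 26 without vehicle replicates 1, 2 and 3, 11 and 25 without 0.1 nM replicates 1 and 2, and 122 in the covariate fit. The losses numbered 3 without vehicle replicate 1, and 2 and 3 without 0.1 nM replicates 1 and 2. Of the 19 gains at 6 h, 14 (73.7%) were called at 18 h, which is 34.1% of those called there. These 19 regions stood at a median log2 ratio to vehicle of 1.22, 1.09 and 1.15 in the 18 h libraries of the same dose.

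By the same rule, the largest gain with the low dose was at chr19:3429364-3430409, a region of 1045 bp. At 6 h it had 4.73, 4.24 and 5.59 CPM with vehicle, 21.3, 16.4 and 24.6 CPM with 0.1 nM and 13.7, 13.0 and 17.9 CPM with 10 nM. At 18 h it had 4.35, 5.61 and 4.13 CPM with vehicle, 34.5, 25.5 and 22.4 CPM with 0.1 nM and 24.4, 15.5 and 17.5 CPM with 10 nM. Every treated library lay above every vehicle library, and the low dose had the higher mean at both times. The log2 fold change with 0.1 nM was 2.11 (SE 0.24, edgeR adjusted p = 4.51e-05) at 6 h and 2.55 (SE 0.24, edgeR adjusted p = 4.85e-06) at 18 h. Between the doses the log2 differences, 10 nM minus 0.1 nM, of -0.48 (SE 0.22) and -0.52 (SE 0.22) did not pass the test (edgeR adjusted p = 0.147 and 0.169).

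The region at chr19:2028745-2029145 also answered the low dose, with 0.945, 3.65 and 2.02 CPM with vehicle, 7.71, 7.22 and 7.30 CPM with 0.1 nM and 11.9, 11.8 and 12 CPM with 10 nM at 6 h. The 3 groups did not overlap, and both doses were called against vehicle (edgeR adjusted p = 0.0089 and 1.73e-05). At 18 h the largest fall with 0.1 nM by that rule was at chr19:29504343-29505248, from 13.5, 13.0 and 13.4 CPM with vehicle to 4.05, 5.46 and 5.06 CPM (log2 fold change -1.46, SE 0.20, edgeR adjusted p = 0.000274). With 10 nM it had 4.68, 5.23 and 3.08 CPM at 18 h. At 6 h all its libraries lay between 8.89 and 14.1 CPM and no dose was called, although the change in the 10 nM response between the times did not pass the test (log2 difference -1.37, SE 0.28, edgeR adjusted p = 0.138).

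Between the doses at 6 h, 333 chromosome 19 regions were higher and 215 lower with 10 nM than with 0.1 nM. Over all chromosomes 20.4% were called, 15.1% higher and 5.25% lower. In either direction the calls were 0.813 times the matched number, the lowest of the 22 autosomes, and the losses, at 5.56% of the chromosome, were 0.847 times, 4th from the lowest. The covariate fit called 540 gains and 311 losses. The losses numbered 110 and 98 without 0.1 nM replicates 1 and 3 and 101, 110 and 126 without 10 nM replicates 1, 2 and 3.

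At 18 h 134 regions were higher and 121 lower with 10 nM than with 0.1 nM, where 10.9% over all chromosomes were called, 6.67% higher and 4.22% lower. The matched ratio was 0.627. Libraries with the same replicate number deviated together in these 2 groups, and a fit that blocks on this number called 198 losses. The covariate fit called 246 gains and 226 losses. The gains numbered 67 and 76 without 0.1 nM replicates 1 and 2 and 77 without 10 nM replicate 1, and the losses 53 without 0.1 nM replicate 1. At chr19:15577691-15578254 the doses went apart: 20.4, 17.2 and 12.2 CPM with 0.1 nM and 4.36, 5.15 and 4.57 CPM with 10 nM, around 11.6, 10.6 and 8.72 CPM with vehicle at 18 h. The difference between the doses passed the test (log2 difference -1.83, SE 0.21, edgeR adjusted p = 1.4e-05), and the higher value with 0.1 nM against vehicle did not (edgeR adjusted p = 0.0762).

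No chromosome 19 region differed between the vehicle groups of the 2 times by edgeR or DESeq2, and 100 had an unadjusted edgeR p under 0.05, or 2.59% against 2.88% on the other autosomes. Nor was any called in edgeR's test of whether a response changed between 6 h and 18 h, where 0.00151% of regions over all chromosomes were called for 10 nM. There were 161 at an unadjusted p under 0.05 for 10 nM, or 4.17% against 5.62% elsewhere, and 51 for 0.1 nM, or 1.32% against 2.57%. DESeq2 called 6 for 10 nM, and edgeR called 1 without 10 nM replicate 1 of 18 h, 3 with the replicate number as a block and 10 with the covariate. Over the 6 comparisons of doses with vehicle or with each other, 2920 chromosome 19 regions (75.5%) were never called, against 65.5% on the other autosomes.

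The responses were spread along the chromosome. In the 54 stretches of 1 Mb that held at least 20 tested regions, 10 nM at 6 h raised 0 to 28.8% of the regions, with a median of 10.7%, and 3 stretches had no gain. The highest share was 21 of 73 regions from 33000000 to 34000000. In the strongly open stretch from 37000000 to 38000000, with a median vehicle level of 24.0 CPM, none of 35 regions rose. Losses ran from 0 to 16.3%, and 7 stretches had none. The densest run of gains within 1 Mb at 6 h was 23 of 88 regions from 18808542 to 19724682, led by chr19:18948230-18948769 with 0.63, 1.22 and 2.10 CPM with vehicle and 12.8, 9.84 and 13.8 CPM with 10 nM. The densest run of losses was 14 of 92 regions from 41955103 to 42925678.

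The densest run of gains at 18 h lay just before the largest stretch without regions, which divides the chromosome into 1811 tested regions on one side and 2054 on the other. From 23278304 to 24257008, 29 of 69 regions (42.0%) rose with 10 nM. This stretch was picked after its values were seen, so no test is given. From 23000000 to the last region before the gap, 31 of 78 regions rose at 18 h and 14 at 6 h, or 39.7% and 17.9%, against 7.13% and 10.7% of the rest of the chromosome. The vehicle level there was low, with a median of 1.51 CPM against 4.89 CPM. Of all chromosome 19 regions from 1 to 2 CPM, 14.9% rose with 10 nM at 18 h and 18.8% at 6 h. The share of the stretch at 6 h was thus close to that of its level class, and the share at 18 h was above it. Leaving out each 10 nM or vehicle library of 18 h in turn gave 21 to 32 gains.

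The 31 gains of this stretch summed to 41.1, 40.7 and 49.7 CPM with vehicle, 51.6, 62.9 and 50.5 CPM with 0.1 nM and 107, 114 and 113 CPM with 10 nM at 6 h. At 18 h they summed to 43.4, 45.6 and 56.9 CPM with vehicle, 73.8, 74.2 and 76.7 CPM with 0.1 nM and 245, 159 and 176 CPM with 10 nM. The regions were chosen by the 18 h contrast, in a fit whose spread was estimated over all 18 libraries. In the 6 h libraries every 10 nM library lay above all the others. Of all chromosome 19 gains with 10 nM at 18 h, 76.1% were called at 6 h too, so such a rise is not particular to this stretch. The sum over all 78 regions showed no such rise. It was 1145, 718 and 654 CPM with vehicle and 715, 687 and 653 CPM with 10 nM at 6 h. At 18 h it was 894, 817 and 703 CPM with vehicle and 964, 727 and 651 CPM with 10 nM. A large part of it came from 1 strong region of the stretch, chr19:24183634-24185019. That region had 492, 183 and 196 CPM with vehicle and 198, 145 and 131 CPM with 10 nM at 6 h. At 18 h it had 347, 272 and 232 CPM with vehicle and 227, 210 and 149 CPM with 10 nM. The median log2 ratio to vehicle, which counts each of the 78 regions alike, did rise. It was 0.33, 0.42 and 0.24 with 10 nM at 6 h and 0.79, 0.57 and 0.79 at 18 h.

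**Figure D5:**
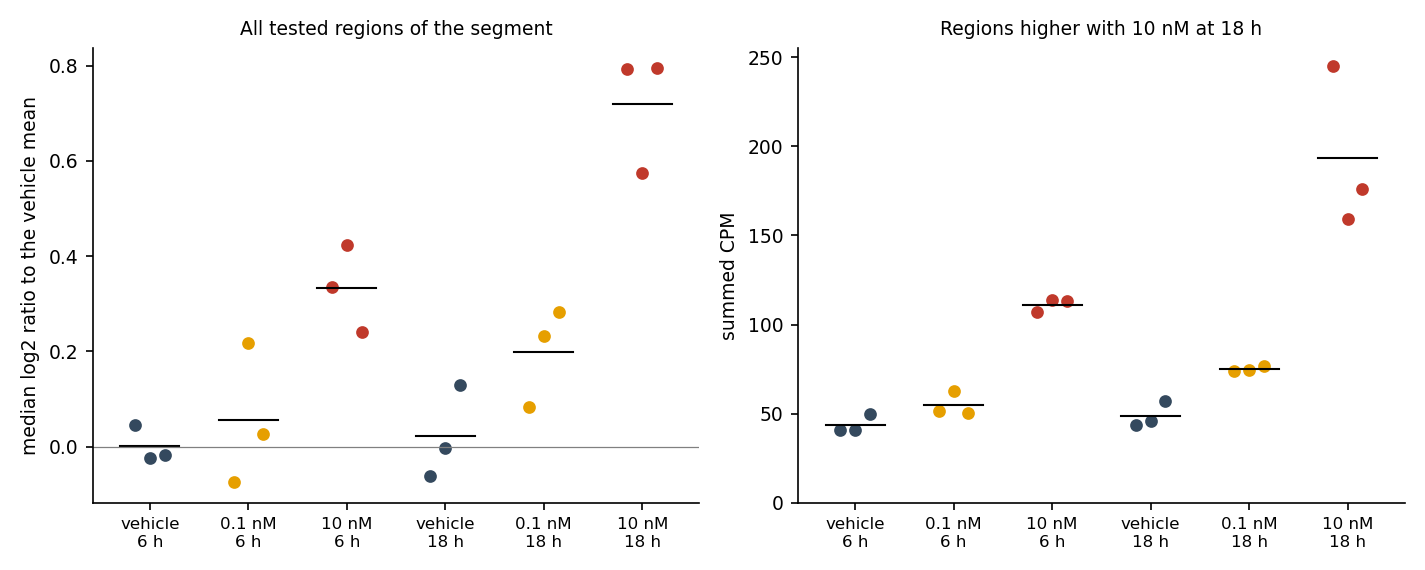
Stretch from 23 Mb to the gap: the median log2 ratio to the vehicle mean of the same time over its 78 tested regions (left) and the summed CPM of its 31 gains with 10 nM at 18 h (right), 1 point per library and the mean of 3 as a line. The 10 nM libraries at 18 h sum to 159 to 245 CPM, those at 6 h to 107 to 114 CPM, and the vehicle libraries to 40.7 to 56.9 CPM.

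Single regions of the stretch had the same order. At chr19:24242381-24243062 the level at 6 h was 2.00, 2.36 and 1.86 CPM with vehicle and 4.59, 6.5 and 5.56 CPM with 10 nM, and at 18 h 1.81, 1.96 and 2.30 CPM with vehicle, 6.59, 5.39 and 4.57 CPM with 0.1 nM and 22.6, 15.6 and 14.3 CPM with 10 nM. The log2 fold change with 10 nM was 1.40 (SE 0.25) at 6 h and 3.13 (SE 0.25) at 18 h, and both passed the test. The difference between the times did not (log2 difference 1.73, SE 0.35, edgeR adjusted p = 0.127). The largest fold change of the run was at chr19:23969900-23970289, with 0.0862, 0.309 and 0.589 CPM with vehicle and 6.67, 3.19 and 4.47 CPM with 10 nM at 18 h, where 0.1 nM gave 1.43, 1.11 and 1.17 CPM. At 6 h its libraries all lay between 0.42 and 1.08 CPM.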

How the data were processed

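The authors deposited 1 table of counts, whole and not normalized, for 132604 regions in 18 libraries. The submitters' processing notes name BWA, MACS2 and hg19. The sources used here do not give versions, read filters, any Tn5 shift, how regions were merged or whether starts count from 0. Regions are named as in the table.

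Counts were fitted with edgeR 4.0.16 in R 4.3.3 (filterByExpr, minimum count 10 and minimum total 15; TMM; quasi-likelihood test, 1 mean per group, 12 residual degrees of freedom). Of all regions 132304 were tested, and p-values were adjusted over them within each comparison. DESeq2 1.42.0 was an alternative. CPM used TMM-scaled totals, and log2 CPM a prior count of 2. Expected calls came from the other autosomes, standardised over 20 bins of level by 5 of width. The steps were tested on simulated data.

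Named regions were the 8 largest gains and losses with 10 nM at 6 h and up to 5 for each other comparison with vehicle (3 between doses), without overlap of the groups' libraries and with mean log2 CPM at or above 1, plus the 5 strongest, the 3 widest, the 3 largest gains from 10 CPM and the leaders of runs. The region at chr19:30396198-30396663 falls outside this rule and was named after its values were seen. The members and lists were chosen with earlier results of these data known. RefSeq counts are of GRCh38.p14. Pairs of replicates differed by more than sampling noise (chi-square per degree of freedom 3.84 to 34.1). Deviations of same-numbered libraries correlated above 0.1 for every number in the 2 doses of 18 h (r = 0.60, 0.19 and 0.45) and in the vehicle groups. The labels state no such pairing.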

Additional observations from a re-analysis of the deposited data

How the results depend on the processing

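Settings changed both how many chromosome 19 regions were called and, with 10 nM at 18 h, which direction had more calls: losses outnumbered gains by 527 to 255 without 10 nM replicate 1 and by 585 to 270 without 2 libraries. Between the doses at 18 h losses also outnumbered gains in 5 settings, by up to 160 to 81. Of 59 results on named regions, 49 stayed called under every setting run, 10 missed the threshold under at least 1, and none reversed. No vehicle region was called between the times under any setting.

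For 10 nM at 6 h an adjusted p under 0.01 left 273 gains and 87 losses, and a log2 fold change of at least 1 left 84 losses. The covariate gave 753 gains, the replicate block 404 losses, and 137 losses were called without vehicle replicate 1 of 6 h and 10 nM replicate 1 of 18 h, the 2 libraries farthest from their group mean (chosen after seeing the data). Leaving out 1 library gave 305 to 438 gains and 97 to 275 losses. At 18 h the stricter p left 164 gains and 85 losses, the minimum fold 84 losses, the compared groups alone 93, the block 382 and the 2 libraries out 585. Leaving out 1 library gave 170 to 289 gains and 107 to 527 losses.

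For 0.1 nM at 6 h the stricter p left 8 gains and 0 losses, DESeq2 called 35 and 5, the groups alone 12 and 0, the block 42 and 4, the covariate 71 and 10, and 2 libraries out 12 and 0 (1 library out: 9 to 23 and 0 to 2). At 18 h the stricter p left 13 and 3, and the gains were 66 with DESeq2, 84 with the block and 122 with the covariate (1 library out: 9 to 43 gains, 2 to 6 losses).

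Between the doses at 6 h the covariate gave 540 gains, and losses were 92 at the stricter p, 70 at the minimum fold, 344 with the groups alone and 339 with the block (1 library out: 237 to 383 and 98 to 175). At 18 h the gains were 61 at the stricter p, 64 alone, 246 with the covariate and 81 with 2 libraries out, and the losses 49, 67 at the minimum fold, 28 alone, 198 with the block and 226 with the covariate (1 library out: 67 to 142 and 53 to 143). Changes of the 10 nM response between times numbered 1 on library totals, 6 with DESeq2, 3 with the block, 10 with the covariate and 1 with 2 libraries out (1 library out: 0 to 1). For 0.1 nM there were 0 throughout (1 library out: 0 to 0). The vehicle share difference was -0.34 to -0.0129 with 1 library out, and no vehicle regions were called, 0 to 0.

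The ratio for all calls with 10 nM at 6 h was 0.664 unmatched, 0.818 for changes of 2-fold without a test, 0.803 alone, 0.851 with the covariate and 0.662 with 2 libraries out (1 library out: 0.666 to 0.761). Gains gave 1.0 at the vehicle level, 0.961 with neighbour distance added (chosen after seeing the data), 0.642 unmatched, 0.925 at 2-fold, 0.947 with the covariate and 0.713 with 2 libraries out (0.721 to 0.859). Losses gave 0.539, 0.544 with neighbour distance, 0.536 at 2-fold, 0.744 alone, 0.747 with the block and 0.563 with 2 libraries out (0.485 to 0.644). At 18 h all calls gave 0.733 at 2-fold, 0.741 with the covariate and 0.774 with 2 libraries out (0.556 to 0.752). Gains gave 0.972 at the vehicle level, 0.933 with neighbour distance, 0.600 unmatched and 0.852 at 2-fold (0.603 to 0.791). Losses gave 0.456, 0.466 with neighbour distance, 0.646 unmatched, 0.448 alone, 0.631 with the covariate and 0.771 with 2 libraries out (0.492 to 0.744).

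For 0.1 nM at 6 h the ratio was 0.746 at 2-fold (1 library out: 0.320 to 0.461), gains 0.619 at the vehicle level and 0.833 at 2-fold (0.340 to 0.537), and losses 0 alone and 0 with 2 libraries out (0 to 0.529). At 18 h it was 0.617 at 2-fold (0.228 to 0.443), gains 0.692 at the vehicle level, 0.663 with neighbour distance, 0.662 at 2-fold and 0.657 with the covariate (0.229 to 0.455), and losses within their counting error (0.121 to 0.373). The cause of these changes was not tested. The block pairs libraries by number only. Outside the doses at 18 h and the vehicle groups, its values rest on numbers that did not all correlate above 0.1. At 18 h the correlations with vehicle were still positive, at 0.448, 0.098 and 0.456 for 0.1 nM and 0.357, 0.014 and 0.353 for 10 nM.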
